A study of Homo sapiens with 6 samples.

Results

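The genes examined here are LIN28A and LIN28B, 2 enzymes that act on the precursor of the let-7 microRNA (TUT4 and DIS3L2), and 6 genes known as let-7 targets or as RNA-binding proteins of embryonic and tumour cells (TRIM71, HMGA1, HMGA2, IGF2BP1, IGF2BP2 and IGF2BP3). They were taken by symbol from the count table: all 10 were among its 59653 gene symbols, and all 10 passed the low-count filter that left 17592 tested genes. The cells were PA1, an established human ovarian teratocarcinoma line labelled wildtype in both groups. Cells grown in 2D received a control siRNA (3 libraries) or siRNA against SOX2 (3 libraries), the latter drawn from 2 siRNAs that the labels do not assign to libraries. A coating of poly-HEMA, which prevents attachment, kept the cells in suspension from 24 h after transfection, and RNA was taken 72 h later. The groups therefore share transfection and growth without anchorage, and both come from a single line. The labels do not say whether the libraries of a group came from separate cultures, so p-values measure the spread between these libraries.

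LIN28A and LIN28B are RNA-binding proteins of embryonic cells and of many tumours. Both hold let-7 back: LIN28A binds the let-7 hairpin precursor in the cytoplasm and recruits TUT4 or its relative TUT7, which add uridines to its end, and the exonuclease DIS3L2 then degrades the tailed precursor. Mature let-7 in turn represses mRNAs that carry its seed match in the 3′ UTR, among them those of the LIN28 genes, the chromatin protein gene HMGA2, the ubiquitin ligase and RNA-binding protein gene TRIM71 and the IGF2BP genes. SOX2 has been placed upstream of LIN28 in neural progenitors, which makes these genes of interest when SOX2 is reduced.

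The let-7 sequences are shown because their seed defines the sites discussed for the members. RefSeq (GRCh38.p14) lists 9 mature 5p forms from 12 let-7 and miR-98 genes, and all 9 share the seed GAGGUAG at bases 2 to 8, in capitals here for 1 form from each of the 5 host transcripts that could be tested.
hsa-let-7a-5p: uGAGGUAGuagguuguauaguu
hsa-let-7c-5p: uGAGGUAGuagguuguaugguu
hsa-let-7e-5p: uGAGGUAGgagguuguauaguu
hsa-let-7g-5p: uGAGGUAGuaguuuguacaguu
hsa-miR-98-5p: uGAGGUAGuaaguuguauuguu
These libraries hold polyadenylated RNA, so mature let-7 itself was not measured. The 12 let-7 and miR-98 genes listed in the table had at most 1 count in any library.

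The complement of that seed, CTACCTC, was searched in the 3′ UTRs of GENCODE 29 on the sense strand, and 8 of the 10 genes had at least 1 match. For each of the 10, the annotated 3′ UTR with the most matches was taken. TRIM71 had 6 matches, LIN28B, HMGA2 and IGF2BP1 had 4 each, and LIN28A, HMGA1, IGF2BP2 and IGF2BP3 had 1 each, while DIS3L2 and TUT4 had none. The HMGA2 matches lie in the 3003-base 3′ UTR of transcript ENST00000403681.6, and the longest annotated HMGA2 3′ UTR, of 7421 bases, had none. One site is shown for each gene whose change is described below as higher or lower, and 2 neighbouring ones for TRIM71, which start at bases 4009 and 4032 of its 3′ UTR. Capitals mark the seed match, and the following A, where present, faces the first base of let-7.
LIN28A, base 905 of the 3′ UTR, chr1:26427349-26427370, plus strand: cacagcctattgaaCTACCTCA
LIN28B, base 44, chr6:105078813-105078834, plus strand: cccggttgcaaagtCTACCTCA
HMGA2, base 21, chr12:65963299-65963320, plus strand: ccaacgttcgatttCTACCTCA
TRIM71, base 4009, chr3:32895806-32895827, plus strand: cttttgctgagtttCTACCTCA
TRIM71, base 4032, chr3:32895829-32895850, plus strand: ttgtggcaagtcatCTACCTCA
HMGA1, base 960, chr6:34245830-34245851, plus strand: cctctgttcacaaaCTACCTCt
IGF2BP3, base 560, chr7:23311795-23311816, minus strand: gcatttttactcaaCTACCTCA
All of these positions are exonic, within 3′ UTRs, on GRCh38. A match is a stretch of sequence and was not tested as a working site.

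The labels were checked first. SOX2 stood at 245, 265 and 256 CPM (a gene's count relative to the library total, scaled by TMM) in control replicates 1 to 3 and at 51.8, 54.9 and 50.6 CPM in SOX2 siRNA replicates 1 to 3, so the targeted gene was low in each library labelled SOX2 siRNA. Total counts ranged from 25152313 to 32753184 per library, and 3 counts, the limit that a count of 0 allows, equalled 0.0909 to 0.120 CPM. All members lay far above that level. Of 6 markers of pluripotent or embryonal carcinoma cells, POU5F1 (279 to 354 CPM), SALL4 (142 to 154) and PODXL (653 to 1324) were abundant over the 6 libraries. DPPA4 (1.71 to 3.08 CPM) and L1TD1 (0.829 to 2.66) were low, and TDGF1 had at most 3 counts. The summed level of these markers ran from 1726 to 1794 CPM in control and from 1132 to 1199 in SOX2 siRNA libraries, and PODXL alone ran from 1297 to 1324 and from 653 to 699. POU5F1 went the other way, from 279 to 313 CPM in control and from 330 to 354 in SOX2 siRNA libraries. Its log2 fold change was 0.17 (edgeR, Benjamini-Hochberg adjusted p = 0.00798). SALL4 was not called (adjusted p = 0.202 by the same test). Among markers of other cells, PTPRC and DCN had at most 3 and 4 counts, COL1A1 ran from 254 to 300.3 CPM in control and from 341 to 388 in SOX2 siRNA libraries, and PECAM1 from 62.7 to 65.7 and from 43.1 to 44.1. Of ovarian or tubal markers, WT1 ran from 7.86 to 8.29 CPM in control and from 6.45 to 6.56 in SOX2 siRNA libraries. MUC16 had 10 to 60 counts and PAX8 4 to 26. Of granulosa markers, AMH ran from 4.20 to 4.78 CPM over the 6 libraries, and FOXL2 had at most 2 counts. The part of these shifts in the results below was not tested. In bulk RNA, a change in the level per cell and a change in the share of cells that express a gene cannot be told apart.

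The main comparison asked how this set of genes stood after SOX2 siRNA. LIN28A, LIN28B and HMGA2 rose, and TRIM71, HMGA1 and IGF2BP3 fell by smaller amounts. By edgeR's quasi-likelihood test, 6 of the 10 had a Benjamini-Hochberg adjusted p under 0.05, where 28.2% of all tested genes did. The 3 higher and 3 lower calls stand beside 14.8% and 13.4% of all tested genes. In 9 of the 10 the CPM values of the groups did not overlap, as was so for 41.8% of all tested genes. The members were mostly well expressed. Average log2 CPM was 4.78 for DIS3L2 and 7.18 to 9.87 for the others. The median was 4.81 over tested genes with an annotated 3′ UTR. The part of expression level in these shares was not tested. The median log2 fold change of the 10 was -0.022, beside -0.00085 over all tested genes, so the set did not move in one direction.

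**Figure D1:**
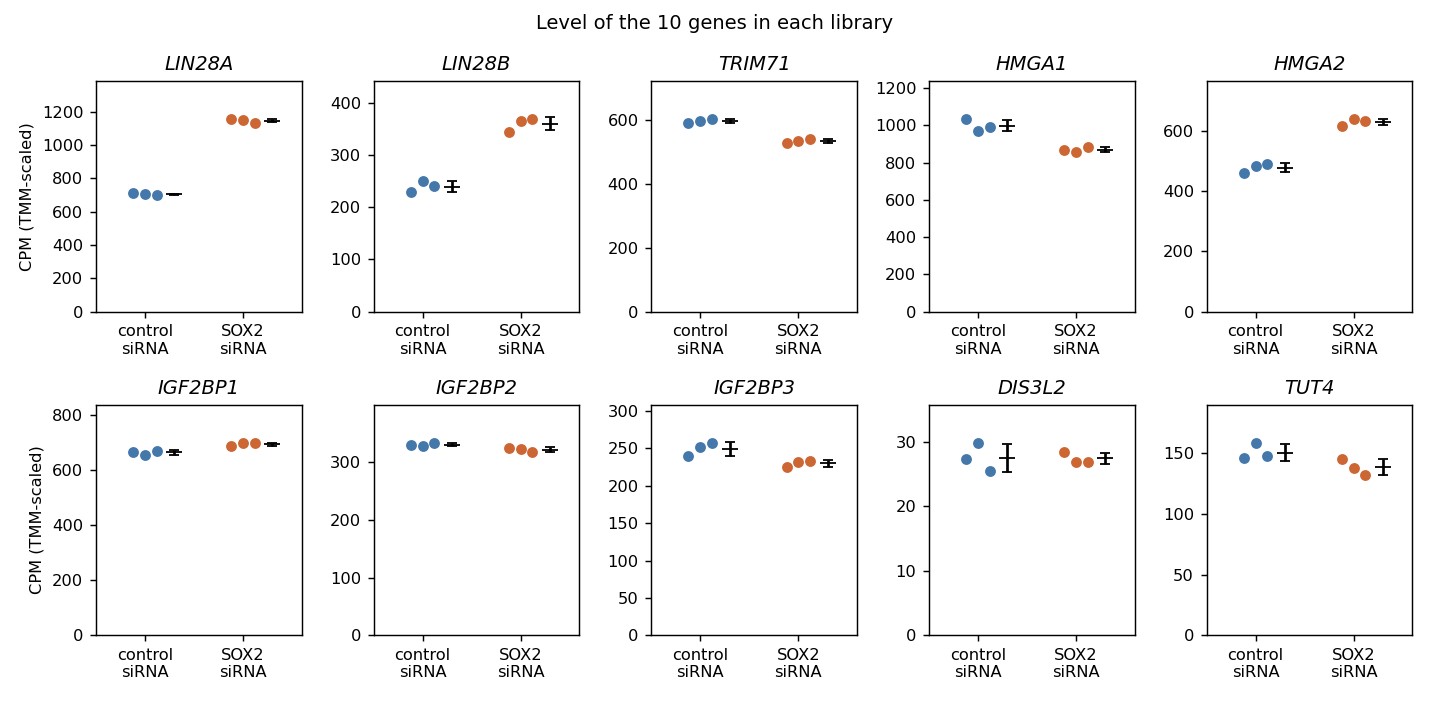
Level of each of the 10 genes (y axis, CPM scaled by TMM, from 0) in the 3 control siRNA and 3 SOX2 siRNA libraries; points are libraries in replicate order, and the black mark and bar give mean and SD (n = 3). LIN28A, LIN28B and HMGA2 are higher in every SOX2 siRNA library, and DIS3L2 is the gene whose groups overlap.

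LIN28A (ENSG00000131914.10, chr1:26410778-26429722, plus strand) showed the largest change of the set. Its level was 710, 704 and 704 CPM in control replicates 1 to 3 and 1154, 1154 and 1136 CPM in SOX2 siRNA replicates 1 to 3. The control libraries were nearly level, and each SOX2 siRNA library was above all of them. The mean rose from 706 ± 3.61 to 1148 ± 10.4 CPM (SD, n = 3), a log2 fold change of 0.70 (standard error 0.031; Benjamini-Hochberg adjusted p by edgeR = 1.80e-11), or 62.6% more.

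LIN28B (ENSG00000187772.7, chr6:104936616-105083332, plus strand), the paralogue that can also hold let-7 at the stage of its primary transcript in the nucleus, changed in the same direction. It was at 228, 250 and 240 CPM in control and at 345, 366 and 368 CPM in SOX2 siRNA libraries. The lowest SOX2 siRNA library was well above the highest control. The log2 fold change was 0.59 (standard error 0.040; Benjamini-Hochberg adjusted p by edgeR = 5.09e-09), an increase of 50.1%.

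Within a library there were 3.11, 2.82 and 2.93 LIN28A counts for each LIN28B count in control and 3.35, 3.16 and 3.09 in SOX2 siRNA. These ratios overlapped between groups. The log2 ratio differed by 0.12 (SE 0.054; exact two-sided permutation p = 0.2, 0.24 after Benjamini-Hochberg adjustment over 6 ratios), so a larger rise of LIN28A than of LIN28B was not established. With 3 against 3 libraries no such test can give a p below 0.1.

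HMGA2 and HMGA1 encode small proteins that bind the minor groove of AT-rich DNA and are abundant in embryonic tissue and in tumours. Their mRNAs moved in opposite directions. HMGA2 (ENSG00000149948.13, chr12:65824131-65966295, plus strand) was at 459, 484 and 488 CPM in control and 616, 637 and 633 CPM in SOX2 siRNA libraries, without overlap. Its log2 fold change was 0.40 (standard error 0.035; Benjamini-Hochberg adjusted p by edgeR = 1.10e-07), an increase of 31.9%.

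HMGA1 (ENSG00000137309.19, chr6:34236873-34246231, plus strand) was at 1031, 970 and 993 CPM in control and 869, 855 and 882 CPM in SOX2 siRNA libraries. Each SOX2 siRNA library was below each control. The log2 fold change was -0.20 (standard error 0.034; Benjamini-Hochberg adjusted p by edgeR = 2.38e-04), a change of -13.0%. HMGA1 has processed copies in the genome, so some of its reads could be assigned to them or from them; HMGA1P2 had 39 to 106 counts and HMGA1P8 26 to 41 per library, against 24307 to 34039 for HMGA1.

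The ratio of HMGA2 to HMGA1 counts, in which scaling between libraries cancels, was 0.445, 0.498 and 0.491 in control and 0.709, 0.745 and 0.718 in SOX2 siRNA libraries. This was the largest shift among the 6 ratios computed, 1.52-fold, with a log2 difference of 0.60 (SE 0.056). The groups did not overlap (exact two-sided permutation p = 0.1, the smallest possible; 0.2 after adjustment over the 6 ratios).

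**Figure D2:**
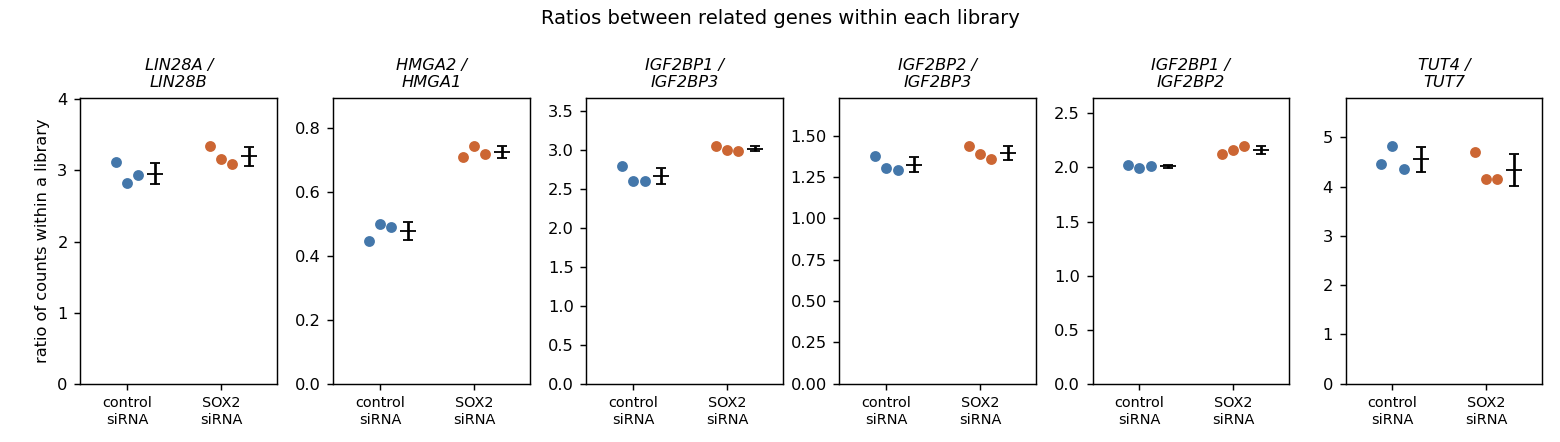
Ratio of the counts of 2 related genes within each library (y axis, from 0) in control siRNA and SOX2 siRNA libraries; points are libraries, and the black mark and bar give mean and SD (n = 3). HMGA2 per HMGA1 goes from 0.478 ± 0.0289 to 0.724 ± 0.0187, while LIN28A per LIN28B overlaps between the groups.

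TRIM71 (ENSG00000206557.5, chr3:32818018-32897826, plus strand), the human counterpart of the worm gene lin-41 and a classical let-7 target, was lower. It was at 590, 596 and 601 CPM in control and 527, 535 and 539 CPM in SOX2 siRNA libraries. Replicates differed by little, and the groups were apart. The log2 fold change was -0.16 (standard error 0.032; Benjamini-Hochberg adjusted p by edgeR = 0.00106), a change of -10.4%. TRIM71 went the other way from LIN28B and HMGA2. It had the most seed matches of the set, but HMGA2 had more per kilobase of the 3′ UTR searched (1.33 beside 0.998). The part of let-7 in these changes was not tested.

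The 3 IGF2BP genes encode cytoplasmic proteins that bind and stabilise mRNAs, first described on the leader of IGF2 mRNA. Each of them changed by little. IGF2BP1 (ENSG00000159217.9, chr17:48997412-49055650, plus strand) had 667, 655 and 670 CPM in control and 688, 697 and 697 CPM in SOX2 siRNA libraries. These values do not overlap, yet the log2 fold change of 0.064 (95% interval -0.0024 to 0.13; edgeR, Benjamini-Hochberg adjusted p = 0.148) did not pass the threshold. The interval leaves room for an increase, but for none as large as that of HMGA2.

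IGF2BP2 (ENSG00000073792.15, chr3:185643739-185825056, minus strand) had 329, 328 and 332 CPM in control and 324, 322 and 317 CPM in SOX2 siRNA libraries. Its log2 fold change was -0.039 (95% interval -0.11 to 0.029; edgeR, Benjamini-Hochberg adjusted p = 0.410). The control values lay slightly above the others, and the difference did not pass the test.

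IGF2BP3 (ENSG00000136231.13, chr7:23310209-23470467, minus strand) had 239, 252 and 257 CPM in control and 225, 232 and 233 CPM in SOX2 siRNA libraries. The lowest control was close to the highest SOX2 siRNA value. The log2 fold change was -0.11 (standard error 0.037; Benjamini-Hochberg adjusted p by edgeR = 0.0263). This call is fragile: without control replicate 2, control replicate 3, SOX2 siRNA replicate 1 or SOX2 siRNA replicate 2 the adjusted p (edgeR, Benjamini-Hochberg) was 0.0764, 0.14, 0.0610 and 0.0716. Exons of IGF2BP3 also share 1521 bases with MALSU1, a gene on the opposite strand with 504 to 660 counts per library, and the use of strand in counting is not given in the sources used here.

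Whether the balance among the IGF2BP genes shifted could not be decided by the permutation test. With 3 against 3 libraries it cannot give a p below 0.1. IGF2BP1 counts per IGF2BP3 count went from 2.79, 2.60 and 2.61 in control to 3.06, 3.01 and 2.99 in SOX2 siRNA libraries, a log2 difference of 0.18 (SE 0.034). Per IGF2BP2 count they went from 2.02, 2.00 and 2.02 to 2.12, 2.16 and 2.2, a log2 difference of 0.10 (SE 0.016). Neither ratio overlapped between groups, each with an exact two-sided permutation p of 0.1 (0.2 after adjustment over the 6 ratios). The ratio of IGF2BP2 to IGF2BP3 did overlap, with a log2 difference of 0.075 (SE 0.038; exact two-sided permutation p = 0.2, 0.24 adjusted).

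The 2 genes that act on the let-7 precursor had small differences. DIS3L2 (ENSG00000144535.19, chr2:231961245-232344350, plus strand), whose loss causes an overgrowth syndrome, had 27.4, 29.8 and 25.5 CPM in control and 28.5, 26.9 and 26.9 CPM in SOX2 siRNA libraries. The groups overlapped, and the log2 fold change was -0.0042 (95% interval -0.13 to 0.13; edgeR, Benjamini-Hochberg adjusted p = 0.970).

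TUT4 (ENSG00000134744.13, chr1:52408282-52553487, minus strand), a terminal uridylyltransferase, had 146, 158 and 148 CPM in control and 146, 138 and 132 CPM in SOX2 siRNA libraries. The highest SOX2 siRNA library, at 145.55 CPM, nearly met the lowest control, at 145.67. The log2 fold change was -0.12 (95% interval -0.21 to -0.026), and the adjusted p of 0.0521 (edgeR, Benjamini-Hochberg) lay just outside the threshold. Of the 6 fits that left out a library, 2 brought it under 0.05 (edgeR, Benjamini-Hochberg). These were the fits without control replicate 1 (0.0430) and without SOX2 siRNA replicate 1 (0.0121). The other fits gave 0.0912 to 0.241 by the same test, so a fall of TUT4 was not established. Its relative TUT7 had a log2 fold change of -0.048 (standard error 0.051; Benjamini-Hochberg adjusted p by edgeR = 0.539). TUT4 counts per TUT7 count were 4.46, 4.84 and 4.36 in control and 4.71, 4.16 and 4.15 in SOX2 siRNA libraries, with overlap (exact two-sided permutation p = 0.5).

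**Figure D3:**
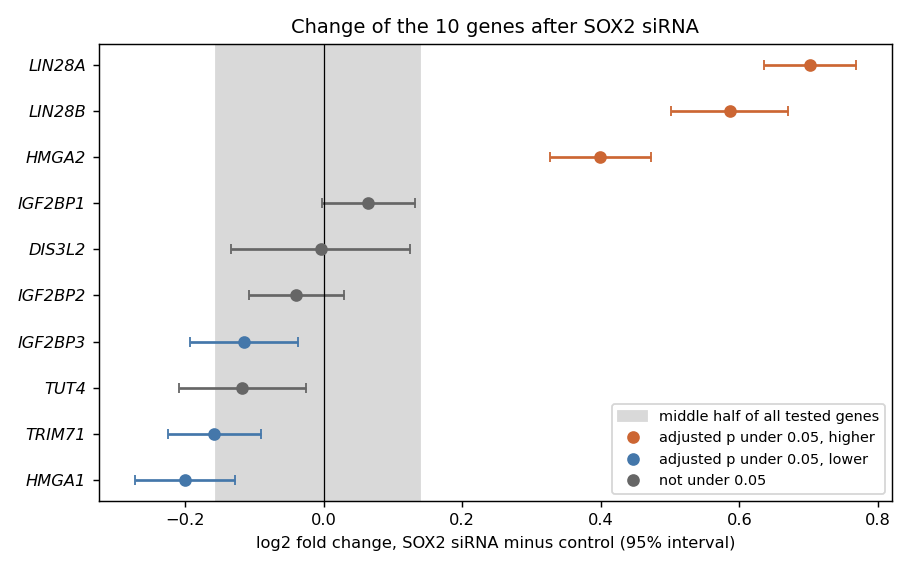
Log2 fold change of each of the 10 genes (x axis, SOX2 siRNA minus control) with its 95% interval from the edgeR fit. Orange and blue points have an adjusted p under 0.05. The grey band spans the lower to the upper quartile of all tested genes, from -0.15 to 0.14. LIN28A, LIN28B and HMGA2 lie to the right of the band, and TRIM71 and HMGA1 just left of it.

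Levels of different genes can be compared only per length. Over the union of annotated exons, control levels were 429 ± 13.3 CPM per kilobase for HMGA1 and 176 ± 0.902 for LIN28A (SD, n = 3), the 2 highest of the set. IGF2BP1 (72.9 ± 0.876), IGF2BP2 (69.7 ± 0.449) and TRIM71 (68.6 ± 0.619) followed, and IGF2BP2 and TRIM71 differed by about the sum of their SDs. LIN28B was at 39.9 ± 1.82, HMGA2 at 31.0 ± 1.01 and IGF2BP3 at 29.3 ± 1.07, the latter neighbours being separated by less than the sum of their SDs. TUT4 was at 9.29 ± 0.418, and DIS3L2 was lowest at 2.43 ± 0.191. HMGA1, LIN28A and DIS3L2 kept these places when the longest transcript was used instead, but the middle of the order did not: IGF2BP2 was then at 89.5, IGF2BP1 at 80.2, HMGA2 at 58.9 and LIN28B at 43.5 CPM per kilobase. In SOX2 siRNA libraries the exon-union levels of LIN28A and LIN28B were 286 ± 2.59 and 59.9 ± 2.12 CPM per kilobase.

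Genes with profiles most like those of the LIN28 genes were sought among the 8908 genes whose average log2 CPM reached 4, by the root mean square difference of centred log2 CPM over the 6 libraries. Nearest to LIN28A were DOCK5 (0.0084), IRF2BP2 (0.026) and TENM4 (0.026), with log2 fold changes of 0.71, 0.71 and 0.70. Nearest to LIN28B were ARHGAP28 (0.013), PTPRG (0.032) and HACD2 (0.036), with log2 fold changes of 0.59, 0.61 and 0.52. LIN28B ranked 77 among the genes nearest to LIN28A, at 0.079. With 2 groups of 3 libraries, genes of like fold change score as alike.

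Around the members, the wider let-7 machinery was described over 14 further genes of precursor processing, tailing and decay. Of these, 1 was higher and 3 were lower (28.6%, beside 28.2% of all tested genes), with a median log2 fold change of -0.018. DICER1, which cuts the let-7 hairpin to its mature duplex and is itself a let-7 target, rose from 243 ± 11.1 to 276 ± 6.57 CPM (SD over 3 libraries; log2 fold change 0.19; edgeR, Benjamini-Hochberg adjusted p = 0.00137). TRIM25, a ubiquitin ligase that binds RNA and is needed for efficient tailing by TUT4, fell from 57.9 ± 2.58 to 42.9 ± 1.84 CPM (log2 fold change -0.43; edgeR adjusted p = 3.08e-06).

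HNRNPA1, an RNA-binding protein reported to hinder processing of let-7a, fell from 2833 ± 40.9 to 2625 ± 42.7 CPM (SD over 3 libraries; log2 fold change -0.11; edgeR, Benjamini-Hochberg adjusted p = 0.0158). MSI1, reported to work with LIN28 on the let-7 precursor, had a log2 fold change of -0.24 (edgeR, Benjamini-Hochberg adjusted p = 0.0190). It stood at 31.6, 26.1 and 32.2 CPM in control and 26.3, 25.6 and 24.2 CPM in SOX2 siRNA libraries. These overlapped, and 4 of the 6 fits that left out a library gave an adjusted p above 0.05; without control replicate 3 the HNRNPA1 adjusted p was 0.0639 (edgeR, Benjamini-Hochberg), and the list then held 2 calls.

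Of 21 listed let-7 genes and host transcripts, 19 were in the table and 5 passed the filter, all of them hosts; 2 of these were higher and none lower (beside 14.8% and 13.4% of all tested genes). The 14 that did not pass were the 12 let-7 and miR-98 genes and the hosts MIRLET7BHG and MIR100HG. MIR99AHG, the host of let-7c, had 37, 41 and 32 counts in control and 124, 91 and 105 in SOX2 siRNA libraries, without overlap. It rose from 1.29 ± 0.302 to 3.48 ± 0.647 CPM (SD over 3 libraries; log2 fold change 1.44; edgeR, Benjamini-Hochberg adjusted p = 3.01e-05). WDR82, in whose span let-7g lies, rose from 151 ± 3.87 to 169 ± 4.89 CPM (log2 fold change 0.16; edgeR adjusted p = 0.00359). MIRLET7A1HG (0.037), HUWE1, which hosts miR-98 (-0.058), and SPACA6, at the let-7e locus (-0.38), did not pass the test, and MIRLET7BHG and MIR100HG had at most 2 and 8 counts in any library.

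Of 36 other textbook let-7 targets, all tested, 11 were higher and 6 lower (47.2%, beside 28.2% of all tested genes), and the median log2 fold change was 0.062. PBX3, a homeobox gene, rose from 46.9 ± 1.21 to 79.6 ± 2.25 CPM (SD over 3 libraries; log2 fold change 0.76; edgeR, Benjamini-Hochberg adjusted p = 4.10e-10). ARID3A and PRDM1, both encoding DNA-binding regulators, had log2 fold changes of 0.48 and 0.56 (edgeR adjusted p = 2.18e-08 and 5.15e-07). ONECUT2, a homeobox gene, had 292, 257 and 227 counts in control and 100, 96 and 89 in SOX2 siRNA libraries, and a log2 fold change of -1.54 (edgeR adjusted p = 3.04e-08). The list thus held calls in both directions. Expression level was not matched between this list and all tested genes, and its part in the share called was not tested.

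The same was asked of sequence rather than of a list. Among 13667 tested genes with an annotated 3′ UTR, 228 had at least 2 CTACCTC matches in their longest one, 1532 had 1 and 11907 had none. By this rule HMGA2 counted among the genes with none. The median log2 fold changes were -0.016, 0.00061 and 0.014. Of genes with at least 2 matches, 20.2% were higher and 23.2% lower, and of genes with none 17.9% and 14.4%. The classes differ in other ways as well: median 3′ UTR length was 4707 bases with at least 2 matches and 1473 with none, and median expression was 5.33 and 4.77 in average log2 CPM. The part of 3′ UTR length and expression in these values was not tested.

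RNAs reported to be bound by IGF2BP proteins were also listed. Of 12 tested, 6 were higher and 1 lower (58.3%, beside 28.2% of all tested genes), with a median log2 fold change of 0.12. Without control replicate 2, 4 were called. Expression level was not matched to that of all tested genes here either. H19, a non-coding RNA of the imprinted IGF2 locus, rose from 39.9 ± 1.88 to 154 ± 4.34 CPM, and IGF2 rose from 14.4 ± 2.78 to 35.1 ± 3.25 CPM (SD, n = 3), with log2 fold changes of 1.95 and 1.27 (edgeR, Benjamini-Hochberg adjusted p = 2.30e-15 and 0.00117). MAPK4 and FSCN1 had log2 fold changes of 1.32 and 0.28 (edgeR adjusted p = 1.52e-05 and 0.00388).

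Among 6 mRNAs reported to be repressed by TRIM71, 2 were higher and 1 lower (3 of 6, beside 28.2% of all tested genes), with a median of 0.083. CDKN1A, encoding the cell cycle inhibitor p21, rose from 14.1 ± 0.344 to 24.8 ± 2.80 CPM (SD over 3 libraries; log2 fold change 0.81; edgeR, Benjamini-Hochberg adjusted p = 4.74e-07). EGR1, an immediate early gene, fell from 112 ± 6.81 to 76.4 ± 2.62 CPM (log2 fold change -0.55; edgeR adjusted p = 7.63e-08). RBL2, a relative of the retinoblastoma gene, had a log2 fold change of 0.17 (edgeR adjusted p = 0.0122), above 0.05 in 3 of the 6 fits that left out a library.

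Finally, 24 other RNA-binding protein genes of early development and germ cells were considered, of which 16 could be tested. Of these, 2 were higher and 6 lower (8 of 16, beside 28.2% of all tested genes, with 14.8% higher and 13.4% lower), with a median of -0.097; without SOX2 siRNA replicate 2, 5 were called. RBM24, known from heart and muscle differentiation, fell from 9.89 ± 0.702 to 3.61 ± 0.161 CPM, and DAZL, a germ cell gene, fell from 9.05 ± 0.206 to 5.19 ± 0.358 CPM (SD, n = 3), with log2 fold changes of -1.45 and -0.80 (edgeR, Benjamini-Hochberg adjusted p = 8.54e-09 and 5.06e-06). MSI2 and QKI had log2 fold changes of 0.35 and -0.19 (edgeR adjusted p = 1.91e-06 and 0.00124). MSI2 and its relative MSI1 thus differed in sign. As in the lists above, expression level was not matched to that of all tested genes.

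**Figure D4:**
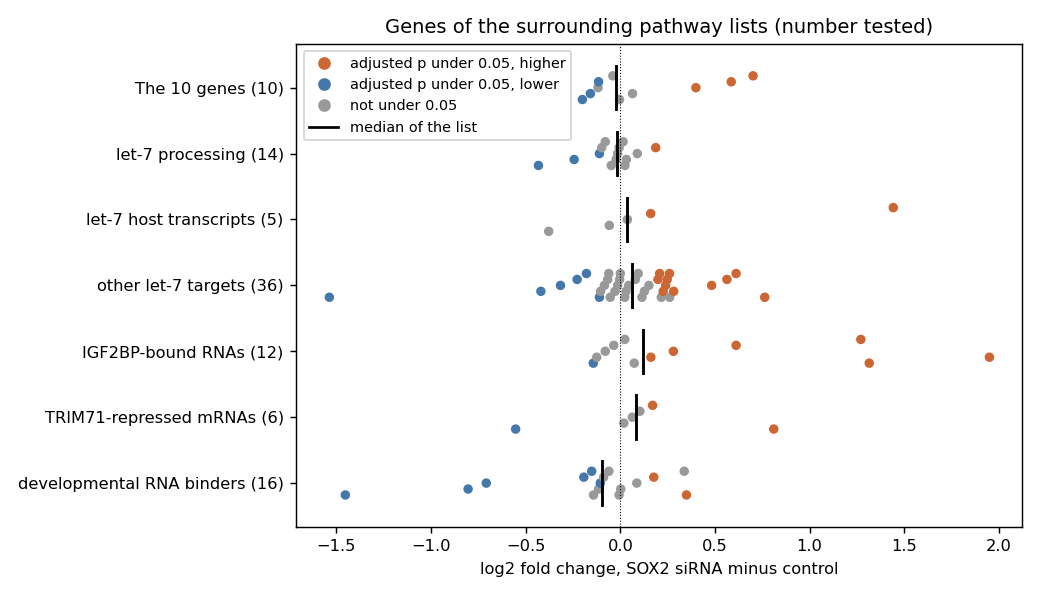
Log2 fold change (x axis, SOX2 siRNA minus control) of each tested gene in the set of 10 and in the 6 surrounding lists, with the number tested in brackets; colours mark an adjusted p under 0.05 and the black line the median of each list. Each list median lies between -0.097 and 0.12, and 5 of the 6 lists hold calls on both sides of 0.

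Promoters were searched on both strands for CATTGTT, a SOX motif, and ATGCAAAT, the octamer bound by POU factors. On opposite strands their matches can share the bases ATG. RefSeq (GRCh38.p14) gave 9 promoters of 300 bases for 6 of the members (DIS3L2, TRIM71, IGF2BP2, HMGA1, LIN28B and IGF2BP3). LIN28A, HMGA2, IGF2BP1 and TUT4 had no promoter in the set used. CATTGTT was in 0 of the 9, and in 3.33% of all 35116 promoters, a share at which 9 are too few to show a lack of the motif. ATGCAAAT was in 1 of the 9, a promoter of HMGA1, and in 1.77% of all.

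Related and antisense genes gave few reads. Of 21 copies, antisense partners or exon-sharing genes of the members in the table, 4 had at least 10 counts in some library: HMGA1P2, HMGA1P8, MALSU1 and RPSAP52, the last a transcript of the HMGA2 locus with 0 to 11 counts. LIN28B-AS1, which shares 67 exonic bases with LIN28B, had at most 4 counts.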

How the data were processed

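Gene expression was measured by mRNA sequencing (KAPA mRNA HyperPrep, per the labels' protocols) in 3 control and 3 SOX2 siRNA libraries. The values deposited by the authors are unnormalised read counts, 1 column per library. The submitters' processing notes name STAR 2.7.3a, Salmon 0.14.1, DESeq2 1.28.1 and GRCh38.p13 without roles, so which program made the counts, the annotation and the use of strand are not given in the sources used here. If counts came from Salmon, reads of related genes were split by estimate.

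From these counts, genes were filtered by filterByExpr (minimum count 10), scaled by TMM (factors 0.991 to 1.01) and tested with edgeR 4.0.16 (glmQLFit with robust=TRUE, glmQLFTest; R 4.3.3), with Benjamini-Hochberg adjustment over 17592 genes and a threshold of 0.05. Intervals and SEs of fold changes come from that fit, and SEs of ratio differences from the spread of log2 ratios within each group. DESeq2 1.42.0 and limma 3.58.1 served as alternatives. Ratios were compared by exact permutation with scipy 1.17.1. Reads carry no molecular identifiers, so the 3-count limit covers counting error only. The procedure was tested on simulated data with 17314 genes. In them 50 genes were changed 1.25-fold and 49 by each larger fold, drawn from all expression levels. In the real data 28.2% of genes were called, so recovery among the members may differ from the simulated one. The procedure recovered 56% of 1.25-fold, 65.3% of 1.5-fold, 79.6% of 2-fold and 100% of 4-fold changes, with 5 false calls. A gene that was not called may therefore have changed.

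The members and gene lists were chosen with earlier results of these data known. Genes named are all members, the called genes of each list with the lowest p, at most 4, list genes used in a ratio, the 3 nearest profiles to LIN28A and LIN28B, and copies or antisense partners with at least 10 counts; other genes (markers, host transcripts named as not called, LIN28B-AS1) were chosen after their values were seen. GENCODE 29 (GRCh38) gave positions, exon lengths and 3′ UTRs and matched 17329 tested genes (98.5%); miRNAs and promoters are from RefSeq. Protein sequences were not used here.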

Additional observations from a re-analysis of the deposited data

How the results depend on the processing

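Settings were DESeq2 size factors, upper-quartile scaling, total counts only, a filter of 1 count in all, a filter of 10 counts per library, limma-voom, the Wald test of DESeq2, a fit without robust estimation, the replicate block and leaving out each library. SOX2, LIN28A, LIN28B, HMGA2, HMGA1 and TRIM71 kept direction and call under all 15; LIN28A ranged from 0.68 to 0.71, LIN28B from 0.55 to 0.62, HMGA2 from 0.37 to 0.42, HMGA1 from -0.22 to -0.18 and TRIM71 from -0.18 to -0.15. IGF2BP1 and IGF2BP2 were called in none.

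TUT4 was called with upper-quartile scaling (-0.137), total counts only (-0.121), the 1-count filter (-0.111), the filter of 10 counts per library (-0.119) and the replicate block (-0.118). It was not called with DESeq2 size factors, the DESeq2 Wald test, limma-voom or the fit without robust estimation. Their Benjamini-Hochberg adjusted p-values were 0.0513, 0.0562, 0.0802 and 0.0774. Leaving out a library gave -0.158 to -0.0808, with a call in 2 of 6 fits. IGF2BP3 ranged from -0.144 to -0.0920 when a library was left out. DIS3L2, never called, changed sign with the 1-count filter (0.0026) and ranged from -0.0564 to 0.0524 when a library was left out. The cause was not tested. Calls ranged from 2 to 4 for let-7 processing, 4 to 7 for IGF2BP-bound RNAs and 5 to 9 for developmental RNA binders in fits that left out a library. Of 315 values for 21 other named genes, 8 lost their call (HNRNPA1, MSI1 and RBL2) and none reversed. The total of called genes ranged from 3760 to 5212.

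Deviations of same-numbered libraries from their group means had correlations across genes of 0.125, -0.0346 and 0.0121. Differently numbered ones had -0.153 to 0.156. These values cannot exclude pairing. The labels do not say what the numbers stand for, so they were not taken as pairs in the main fit. With the replicate block 5177 genes were called against 4964, and TUT4 was the member whose call it changed. The HMGA2 to HMGA1 difference within numbered pairs was 0.60 (exact sign permutation p = 0.25, the smallest possible). Genes with at least 2 let-7 matches had a median of 0.0036 with the 8-base match and -0.011 with the 3′ UTR holding most matches, the latter chosen after seeing the data. Levels per kilobase moved with the length used, for TUT4 from 9.29 to 25.7 with the longest transcript. With the transcript whose 3′ UTR was used to count let-7 matches, TUT4 was at 69.9. IGF2BP3 then went from 29.3 to 117, so the order below HMGA1 and LIN28A depended on the length. Small differences such as that of IGF2BP1 are limited by 3 libraries per group.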
